A study of Rattus norvegicus with 24 samples.

Results

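Dbp, Tef, Hlf, Nfil3, Bhlhe40, Bhlhe41, Usp2 and Wee1 are clock output genes, read here in rat thyroid by every non-control array probe that carries one of these 8 symbols among the 26276 gene names on the array. They have 10 probes of 30367: 3 for Dbp and 1 for each of the other 7 genes. All 10 passed the detection filter (a spot well above background on 3 or 4 arrays of some group), as did 23414 probes in all, and were tested. The probes were chosen by name, whatever their values.

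The 24 one-colour arrays hold 4 thyroid samples in each of 6 groups of RccHan Wistar rat pups: acrylamide and control females at night (10 PM), acrylamide and control males at night (10 PM), and acrylamide and control females in the morning (10 AM). Acrylamide is a reactive small molecule. Dams received it in drinking water at a daily dose of 3 mg per kg from gestation day 6, and their pups went on receiving it up to postnatal day 35 ± 3, whereas control families drank tap water. The study asked which expression changes accompany hormone changes at this dose, and collected at these hours to cover the daily cycle. The hour at which lights went on is not given in the sources used here, and males in the morning were not analysed here. The labels name whole glands and no separation of cells, so fewer cells of a type and less RNA per cell cannot be told apart.

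In the circadian clock, the activators Arntl and Clock drive their own repressors and a layer of output factors. Dbp, Tef and Hlf are PAR bZIP activators that bind D-box sites in DNA, and Nfil3 represses through the same sites. Bhlhe40 (DEC1) and Bhlhe41 (DEC2) repress through E-boxes, the sites that Arntl and Clock use. Usp2, a deubiquitinase, and Wee1, the kinase that holds Cdk1 inactive before mitosis, are known clock-controlled genes in mouse tissues. In rat and mouse liver, Dbp is known for one of the largest daily rhythms of any transcript.

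The 3 Dbp probes lie within 419 bases on rn4, the rat build named in the file headers, and so report neighbouring stretches of one transcript. Their sequences, with that of Hlf, are shown because the Dbp results rest on agreement between separate stretches and the one acrylamide call on the Hlf probe. A_64_P049828 (chr1:96178064-96178123) and A_64_P049827 (chr1:96178148-96178207) start 84 bases apart and read the end of the coding sequence. The capitals mark the stop codon that closes A_64_P049827.
Dbp A_64_P049828: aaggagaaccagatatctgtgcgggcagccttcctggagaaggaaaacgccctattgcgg
Dbp A_64_P049827: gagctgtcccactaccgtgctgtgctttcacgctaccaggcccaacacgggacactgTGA
Hlf A_64_P033710: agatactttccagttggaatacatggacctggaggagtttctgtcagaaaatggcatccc

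The third Dbp probe, A_64_P017188 (chr1:96178423-96178482), starts 215 bases beyond the end of A_64_P049827. The Hlf probe lies at chr10:78755128-78755187. The other probes lie at chr7:120179652-120179711 for Tef, chr17:18107192-18107251 for Nfil3, chr4:144145007-144145066 for Bhlhe40, chr8:47076217-47076276 for Usp2 and chr1:167787742-167787801 for Wee1. The Bhlhe41 probe lies on a piece of chromosome 4 that rn4 leaves unplaced, at bases 1953325 to 1953384.

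The RefSeq table for build GRCr8 gave the 250 bases before the start of 6 of the 8 genes, on the transcribed strand; Hlf and Wee1 were not matched. The E-box CACGTG, which reads the same on both strands, stood before Tef (198 to 193 bases before the start), Bhlhe40 (220 to 215) and Bhlhe41 (48 to 43). It stood in 5.59% of the 33469 windows of this length in the table. The D-box, searched as TTACATAA, TTACGTAA or TTATGTAA so that both strands were covered, stood in 0 of the 6 windows and in 0.932% of all. The ROR core motif AGGTCA, or TGACCT on the other strand, stood before Usp2 (70 to 65 bases before the start) and in 14.1% of all windows. A match is only a run of letters in a window. The windows shown are those of Dbp and Tef, which differed most between the hours, of Usp2, which moved the other way, and of Bhlhe40, with the largest acrylamide difference. Capitals mark the E-box in Tef and Bhlhe40 and the ROR core motif in Usp2, and the Dbp window held none of the motifs.
Dbp (chr1:105312006-105312255, plus strand): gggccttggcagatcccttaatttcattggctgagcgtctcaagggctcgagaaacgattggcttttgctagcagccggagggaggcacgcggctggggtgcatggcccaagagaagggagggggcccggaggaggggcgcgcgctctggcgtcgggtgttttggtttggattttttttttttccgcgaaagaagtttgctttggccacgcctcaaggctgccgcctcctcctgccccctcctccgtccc
Tef (chr7:115206577-115206826, plus strand): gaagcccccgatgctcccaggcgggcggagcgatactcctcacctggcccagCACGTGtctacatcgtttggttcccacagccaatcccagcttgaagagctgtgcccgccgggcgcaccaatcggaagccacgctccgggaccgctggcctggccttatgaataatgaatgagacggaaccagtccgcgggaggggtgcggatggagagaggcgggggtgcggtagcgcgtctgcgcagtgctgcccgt
Bhlhe40 (chr4:143174200-143174449, plus strand): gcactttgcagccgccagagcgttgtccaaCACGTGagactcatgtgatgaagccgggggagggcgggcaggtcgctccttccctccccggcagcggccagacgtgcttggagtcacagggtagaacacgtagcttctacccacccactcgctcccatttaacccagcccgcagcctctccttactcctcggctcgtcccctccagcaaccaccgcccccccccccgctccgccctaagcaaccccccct
Usp2 (chr8:53310620-53310869, plus strand): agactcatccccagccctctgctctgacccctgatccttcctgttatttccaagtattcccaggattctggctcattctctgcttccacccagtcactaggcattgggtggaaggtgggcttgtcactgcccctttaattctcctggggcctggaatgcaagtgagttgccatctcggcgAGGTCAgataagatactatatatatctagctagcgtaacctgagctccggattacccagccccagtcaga

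Levels below are log2 processed signals minus the 75th percentile of the same array, so that 0 stands for that percentile and 1 unit for a doubling of signal. The level of one probe is not set against that of another. Each array had 71.5% to 82.3% of its spots well above background, and 11 of 12 thyroid follicular markers, Tg among them, were well above background on 23 or 24 arrays. Slc26a4 was so on 5. Night arrays lie on 2 slides, females on one and males on the other, and morning arrays on 2 further slides. A scan label in the deposited array names is 1 for night and 2 for morning. The headers give a saturation value of 778978 or 779039 on night arrays, which had 0 saturated spots. On morning arrays it is 65496 or 65497, with 188 to 469 spots saturated, so signals of the 2 hours were read with different ceilings. In females the hour therefore cannot be told apart from slide, scan label and saturation value. On the night slides controls lie in array row 1 and acrylamide samples in row 2, so treatment at night cannot be told apart from row. The morning slides hold both treatments. Some acrylamide arrays stand apart in tissue markers: the mean of 12 follicular markers was -3.45 on acrylamide female morning replicate 1, against 1.89 to 2.35 in morning controls, and the mean of 14 skeletal muscle markers was 1.69 on acrylamide male night replicate 2, against 6.59 to 7.67 in control males. Acrylamide male replicate 4 and acrylamide female night replicate 2 also stand apart, with muscle means of 5.16 and 3.60. These 4 arrays are left out together in an alternative below, a set chosen after seeing the data. Acrylamide female night replicate 1 and control female morning replicate 2, with muscle means of 5.20 and 4.83, were kept in it. Control arrays were uneven too. The cartilage mean was -1.22 on control female morning replicate 4, against -4.09 to -3.88 on the others of its group. The parathyroid mean was -0.72 on control female morning replicate 1, -2.55 on acrylamide female morning replicate 3 and -1.74 on acrylamide male replicate 4.

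**Figure D1:**
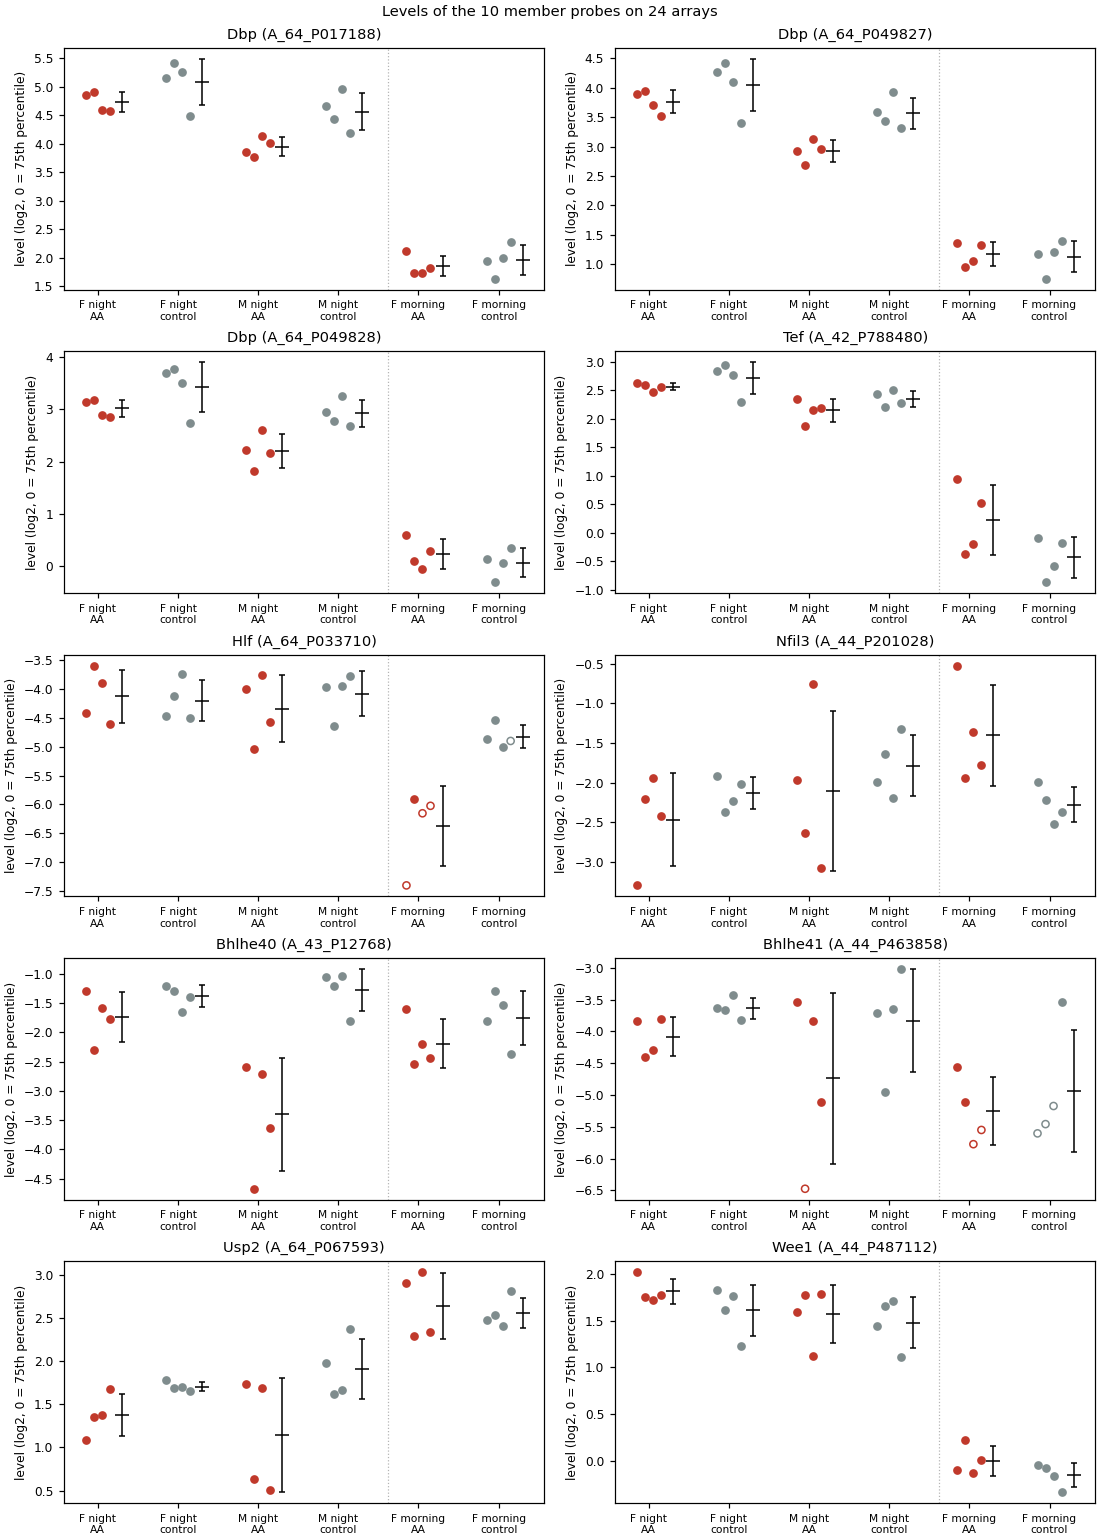
Level of each of the 10 probes (y axis, log2 processed signal, 0 = 75th percentile of the array) on the 24 arrays in 6 groups of 4 (F, females; M, males; AA, acrylamide). Points are arrays, open where the spot was not well above background, black bars are group mean ± SD, and the dotted line parts 10 PM from 10 AM. Dbp, Tef and Wee1 lie higher on every night array than on every morning array, and Usp2 in females lies lower on every night array than on every morning array.

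At 10 PM, Dbp, Tef and Wee1 were higher and Usp2 was lower than at 10 AM in females of both treatments. Dbp transcripts read 5.99 to 7.37 times as high in acrylamide females and 7.51 to 10.2 times as high in control females, over its 3 probes. Tef was 5.05 times as high in acrylamide females and 8.79 times in control females. Wee1 was 3.52 times as high in acrylamide females and differed by 1.76 on the log2 scale in control females. Of the 10 probes, limma called 8 in acrylamide females (6 higher, 2 lower) and 7 in control females (6 higher, 1 lower) at an adjusted p under 0.05. Over all probes tested, 54.7% were called in acrylamide females (27.2% higher, 27.5% lower) and 47.6% in control females (21% higher, 26.6% lower). The count of members is thus to be read against a background in which large shares of all probes were called. The night and morning arrays did not overlap for 8 of 10 member probes in acrylamide females, where 44.5% of all probes did not, and for 7 of 10 in control females, where 56.5% did not. The median member difference was 2.03 in acrylamide females, where that of all probes was 0.05, and 1.53 in control females, where that of all probes was 0.03. Dbp, with its 3 probes, enters these counts and medians 3 times.

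The activators are described before the repressors. Dbp probe A_64_P017188 read 4.86, 4.91, 4.59 and 4.57 in acrylamide females at night, against 2.11, 1.73, 1.74 and 1.81 in acrylamide females in the morning. In control females it read 5.15, 5.42, 5.27 and 4.49 at night, against 1.94, 1.63, 1.99 and 2.27 in the morning. Every night array lay above every morning array. The difference was 2.88 (SE 0.20, adjusted p = 1.6e-10) in acrylamide females and 3.12 (SE 0.20, adjusted p = 4.2e-11) in control females. The 2 coding-end probes gave 2.58 and 2.78 in acrylamide females, and 2.91 and 3.36 in control females, so these separate stretches of the transcript gave differences of like size. Across all settings and left-out arrays in the closing section, the Dbp differences stayed between 2.51 and 3.12 in acrylamide females and were at least 2.78 in control females.

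Tef, the second PAR bZIP activator, read 2.63, 2.60, 2.48 and 2.56 in acrylamide females at night, against 0.95, -0.37, -0.19 and 0.53 in acrylamide females in the morning. In control females it read 2.84, 2.94, 2.77 and 2.30 at night, against -0.09, -0.86, -0.57 and -0.18 in the morning. Night and morning arrays did not overlap in either treatment. The difference was 2.34 (SE 0.23, adjusted p = 6.1e-08) in acrylamide females and 3.14 (SE 0.23, adjusted p = 6.5e-10) in control females.

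Hlf, the third activator, was dim. It read -4.41, -3.59, -3.90 and -4.60 in acrylamide females at night, against -7.41, -5.90, -6.16 and -6.03 in acrylamide females in the morning, a difference of 2.25 (SE 0.32, adjusted p = 8.9e-06). In control females it read -4.47, -4.12, -3.74 and -4.50 at night, against -4.87, -4.53, -5.00 and -4.90 in the morning. That difference was 0.62 (SE 0.32, adjusted p = 0.122) and was not called, although the arrays did not overlap. All 8 night arrays of females were well above background for Hlf, against 1 of 4 acrylamide and 3 of 4 control arrays in the morning. With another background correction (normexp) the difference was 0.19 in acrylamide females (adjusted p = 0.437) and -0.44 in control females, and under quantile normalization the control difference was 1.43 (adjusted p = 0.000368). The direction in control females thus depends on how background is handled.

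Wee1, the mitotic inhibitor kinase, read 2.02, 1.75, 1.72 and 1.77 in acrylamide females at night, against -0.10, 0.22, -0.13 and 0.01 in acrylamide females in the morning. In control females it read 1.83, 1.61, 1.77 and 1.23 at night, against -0.05, -0.08, -0.16 and -0.33 in the morning. Night and morning arrays lay far apart in both treatments, by 1.82 (SE 0.17, adjusted p = 2.4e-08) in acrylamide females and 1.76 (SE 0.17, adjusted p = 3.3e-08) in control females. Of 10 mitotic entry genes, 1 was higher and 5 were lower at night in acrylamide females, among them the kinases Plk1 (-1.34, SE 0.34, adjusted p = 0.00222) and Cdk1 (-0.98, SE 0.29) and the cyclin Ccnb1 (-1.23, SE 0.38). In control females 0 were higher and 1 was lower, Pkmyt1, which inhibits Cdk1 as Wee1 does (-0.86, SE 0.25, adjusted p = 0.00732). Over all probes, 27.2% were higher and 27.5% lower in acrylamide females, and 21% higher and 26.6% lower in control females. Acrylamide female morning replicate 2 stood apart in the mean of the mitotic entry genes, at -0.32 against -1.86 to -1.69 on the other 3 arrays of its group, and in the mean of 10 T cell and thymocyte markers, at 0.59 against -4.83 to -3.93. Without it, an alternative chosen after seeing the data, 2 of the 10 genes were higher and 5 lower at night in acrylamide females, where 53.3% of all probes were called. The 2 higher were Cdc25c (1.45, SE 0.35, adjusted p = 0.00174) and Chek1 (0.91, SE 0.23, adjusted p = 0.00305). Among the lower, Plk1 stood at -0.83 (SE 0.21, adjusted p = 0.00311) and Cdk1 at -0.60 (SE 0.24, adjusted p = 0.0387). The part of T cell content in these differences was not tested.

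Usp2, the deubiquitinase, went the other way. It read 1.08, 1.36, 1.37 and 1.68 in acrylamide females at night, against 2.90, 2.29, 3.03 and 2.34 in acrylamide females in the morning. In control females it read 1.78, 1.69, 1.70 and 1.65 at night, against 2.48, 2.53, 2.41 and 2.80 in the morning. No night array reached a morning array. The difference was -1.27 (SE 0.25, adjusted p = 0.000295) in acrylamide females and -0.85 (SE 0.25, adjusted p = 0.00832) in control females.

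The repressors follow. Nfil3, which opposes Dbp, Tef and Hlf at the D-box, read -3.30, -2.21, -1.94 and -2.42 in acrylamide females at night, against -0.52, -1.94, -1.36 and -1.78 in acrylamide females in the morning. It was called lower there, by -1.06 (SE 0.39, adjusted p = 0.0259), with arrays that met at -1.94. Without night replicate 1, morning replicate 1 or morning replicate 3 the call was lost (adjusted p = 0.109, 0.108 and 0.051), as it was with only the 2 groups fitted (0.0506), with slide as a fixed term (0.0844) and with array weights (0.0924). In control females Nfil3 read -1.92, -2.37, -2.23 and -2.01 at night, against -1.99, -2.22, -2.52 and -2.37 in the morning, a difference of 0.14 (SE 0.39, adjusted p = 0.792) between groups that overlapped.

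Bhlhe40, the DEC1 repressor, averaged -1.74 ± 0.42 in acrylamide females at night, against -2.19 ± 0.42 in the morning, and -1.39 ± 0.19 in control females at night, against -1.75 ± 0.46 in the morning (SD, n = 4 each). The differences of 0.45 (SE 0.36, adjusted p = 0.289) and 0.36 (SE 0.36, adjusted p = 0.426) were not called, and the arrays overlapped. Bhlhe41, the DEC2 repressor, read -3.84, -4.40, -4.29 and -3.81 in acrylamide females at night, against -4.56, -5.10, -5.77 and -5.55 in the morning. The 2 groups did not overlap, and the difference of 1.16 (SE 0.53, adjusted p = 0.0683) was not called. It was called in 7 of 20 alternatives, which ran from -0.11 under normexp to 1.92 under quantile normalization (adjusted p = 0.00629). In control females it read -3.63, -3.66, -3.43 and -3.83 at night, against -5.60, -5.46, -5.17 and -3.53 in the morning, and the difference of 1.30 (SE 0.53, adjusted p = 0.0478) was called although morning replicate 4 lay among the night arrays. The morning spots were well above background on 2 of 4 acrylamide and 1 of 4 control arrays. The control call was lost without any of 7 of the 8 arrays compared (adjusted p = 0.0649 to 0.135), morning replicate 4 being the exception, and with slide as a random block (1.26, adjusted p = 0.0769), and with normexp the difference was -0.18.

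**Figure D2:**
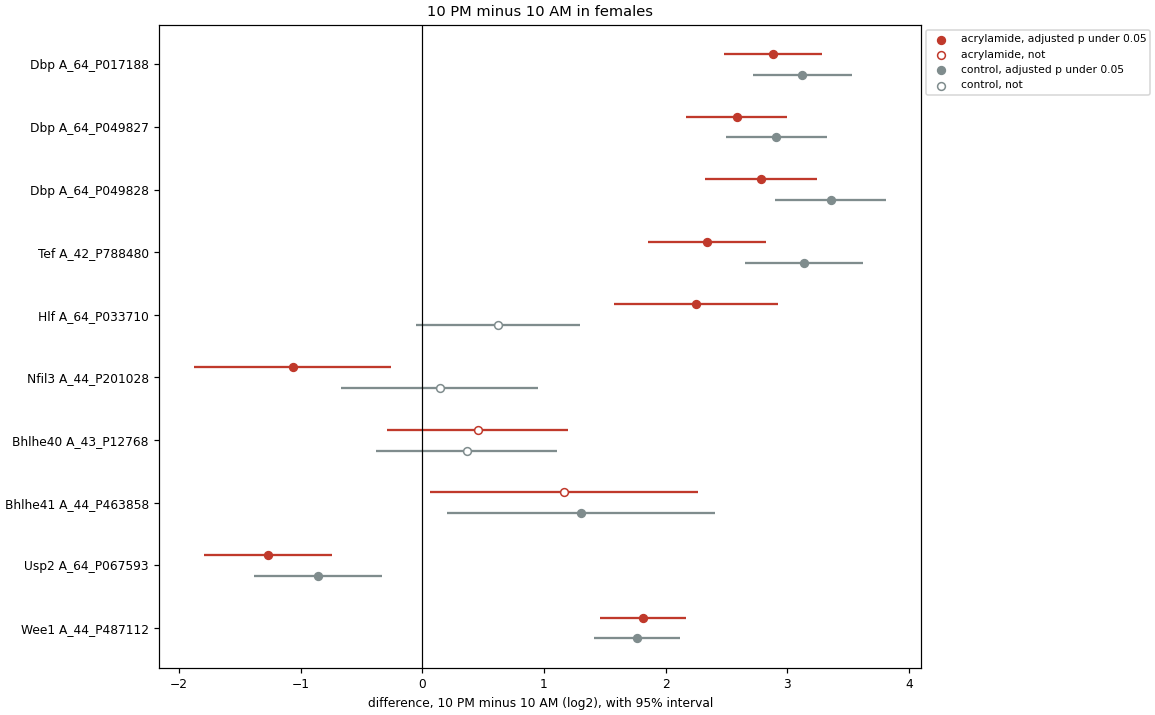
Difference between 10 PM and 10 AM (x axis, log2) for the 10 probes (y axis) in acrylamide and control females, with 95% intervals from limma; filled points passed an adjusted p under 0.05. The Dbp, Tef and Wee1 intervals lie above 0 and the Usp2 intervals below 0 in both treatments, and Hlf was called in acrylamide females alone, at 2.25 against 0.62 in control females.

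The arrays of the 2 hours also differed in tissue markers. In acrylamide females 8 of 12 follicular markers tested were higher and 1 was lower at night, with a median difference of 2.78. Of 7 oesophageal epithelium markers 1 was higher and 6 were lower there (median -3.10), and of 7 cartilage markers 1 was higher and 6 were lower (median -2.93). In control females 0 of 12 follicular markers were higher and 2 lower (median 0.42), 0 of 7 oesophageal markers higher and 2 lower (median -0.70) and 0 of 7 cartilage markers higher and 4 lower (median -1.89). Parathyroid markers averaged 3.35 to 4.08 over the arrays of acrylamide females at night, against -5.28 to 2.84 in the morning, and 3.68 to 4.14 in control females at night, against -0.72 to 2.49 in the morning. C cell markers ran from 1.83 to 2.64 in acrylamide females at night, against -2.97 to 1.37 in the morning, and from 1.95 to 2.40 in control females at night, against 0.67 to 1.73 in the morning. All 3 parathyroid markers were well above background on every night array of females, against 1 of 3 on all acrylamide and 2 of 3 on all control arrays in the morning, and all 7 C cell markers on every array of females at either hour. Their part in the time differences was not tested.

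The core clock genes, listed for comparison, moved in both directions at these hours. Of 18 tested of 20 listed, 6 were higher and 7 lower at night in acrylamide females, and 5 were higher and 4 lower in control females, beside the 54.7% and 47.6% of all probes called. The list median was 0.20 in acrylamide females and 0.13 in control females. Arntl, the activator that drives the clock, was lower at night by -2.80 (SE 0.26, adjusted p = 1.9e-08) in acrylamide females and -2.47 (SE 0.26, adjusted p = 1.1e-07) in control females. Its paralogue Arntl2 was lower by -2.23 (SE 0.32) and -2.64 (SE 0.32), and Npas2, a partner of Arntl, by -1.49 (SE 0.26) and -1.02 (SE 0.26). The repressor Per2 was higher, by 2.43 (SE 0.25, adjusted p = 9.1e-08) and 2.12 (SE 0.25, adjusted p = 5.3e-07). Nr1d2, a nuclear receptor that represses Arntl, was higher in control females by 1.98 (SE 0.35), and Csnk1d, a kinase that acts on the Per proteins, was higher by 1.16 (SE 0.12) in acrylamide and 0.75 (SE 0.12) in control females. Per1 was lower in acrylamide females, by -2.05 (SE 0.39, adjusted p = 0.000172). Both genes went the same way in the other treatment. Per1 averaged -3.63 at night and -2.25 in the morning in control females, and Nr1d2 averaged -2.33 and -3.79 in acrylamide females.

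**Figure D3:**
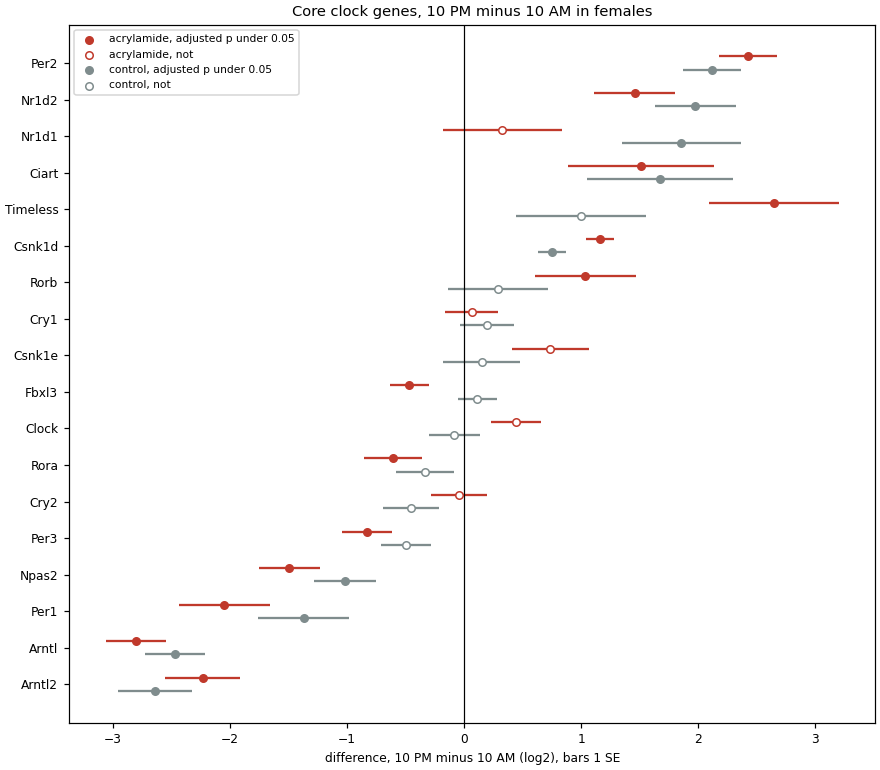
Difference between 10 PM and 10 AM (x axis, log2; bars 1 SE) for the 18 core clock genes tested (y axis, ordered by the control difference) in acrylamide and control females; filled points passed an adjusted p under 0.05. Per2 lies to the right at 2.43 and 2.12, and Arntl to the left at -2.80 and -2.47.

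Other lists are given beside the same shares of all probes, 54.7% called in acrylamide females (27.2% higher, 27.5% lower) and 47.6% in control females (21% higher, 26.6% lower). Among D-box targets, genes that PAR bZIP factors are known to drive in mouse liver, 3 of 5 tested (8 listed) were higher at night in acrylamide females and 2 of 5 in control females, with 0 lower in each. Por, the electron donor of cytochromes P450, was higher by 2.21 (SE 0.26, adjusted p = 6.8e-07) in acrylamide and 1.81 (SE 0.26, adjusted p = 7.5e-06) in control females. Alas1, the first enzyme of haem synthesis, was higher in both (adjusted p = 0.000237 and 8.6e-05), by 1.22 (SE 0.21) in control females, and Pdxk, which makes active vitamin B6, by 0.75 (SE 0.21) in acrylamide females. The list medians were 0.75 and -0.01. Of 15 hypoxia response genes tested, a response in which Bhlhe40 is itself a known target, 3 were higher and 2 lower in acrylamide females and 6 were higher and 1 lower in control females. Ddit4, a stress-induced inhibitor of mTOR signalling, was higher in both, by 0.76 (SE 0.31, adjusted p = 0.0424) and 1.42 (SE 0.31, adjusted p = 0.000687). Egln3, an oxygen-sensing hydroxylase, was lower in acrylamide females by -2.17 (SE 0.67, adjusted p = 0.00961).

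With acrylamide, 0 of the 10 probes were called in females at night, 0 in males at night and, in the morning, 1 in females. The call was Hlf, which was lower in acrylamide females in the morning. Over all probes, 0% were called in females at night, 0% in males at night and, in the morning, 1.83% in females (1.44% lower, 0.389% higher). These comparisons share arrays with the time comparisons and are not independent of them. The median member difference was -0.33 in females at night, -0.63 in males at night and, in the morning, 0.06 in females, where that of all probes was 0.02, -0.01 and -0.10. These medians count each Dbp probe separately.

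In females in the morning, the Hlf arrays given above put all 4 acrylamide samples (-7.41 to -5.90) below all 4 controls (-5.00 to -4.53). The difference was -1.55 (SE 0.32, adjusted p = 0.0307), or 0.342 times the control signal. Only 1 of 4 acrylamide and 3 of 4 control spots were well above background, so the signal behind the fold is weak. On slide 3 the mean was -6.03 for 2 acrylamide arrays, against -4.80 for 3 controls, and on slide 4 it was -6.72 for 2 acrylamide arrays, against -4.90 for 1 control. With slide as a fixed term the difference was -1.44 (adjusted p = 0.0613) and the call was lost, as it was with array weights (-1.39, adjusted p = 0.0833) and with only the 2 groups fitted (adjusted p = 0.376). Acrylamide replicate 1, the lowest array, is the one whose follicular markers averaged -3.45. Without it the difference was -1.20 (adjusted p = 0.102), and with all 4 arrays apart in tissue markers left out, an alternative chosen after seeing the data, -1.20 (adjusted p = 0.0353). Without control replicates 1, 2 or 3 the adjusted p was 0.0627, 0.108 and 0.0743. With normexp the difference was -0.60 (adjusted p = 0.105).

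The other member probes in the morning did not pass. Tef, as given above, differed by 0.66 (SE 0.23, adjusted p = 0.111) between groups that overlapped. Without acrylamide replicate 2 or 3 its adjusted p was 0.0405 or 0.0435. Nfil3 lay higher on all 4 acrylamide arrays (-1.94 to -0.52) than on any control (-2.52 to -1.99), a difference of 0.87 (SE 0.39, adjusted p = 0.185). Probes with groups that did not overlap numbered 2 of 10, where 8.47% of all probes had such groups. The 3 Dbp probes differed by -0.11, 0.05 and 0.17, with 95% intervals within -0.52 to 0.63. Wee1 differed by 0.15 (SE 0.17) and Usp2 by 0.08 (SE 0.25). Bhlhe40 differed by -0.44 (SE 0.36) and Bhlhe41 by -0.30 (SE 0.53). Among the mitotic entry genes Ccnb2, a cyclin of mitosis, was higher by 1.43 (SE 0.36, adjusted p = 0.0469), and without acrylamide replicate 2, the array with the high mitotic entry and T cell marker means, by 0.95 (SE 0.28, adjusted p = 0.0518), which was not called.

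In males at night, Bhlhe40 read -2.59, -4.67, -2.71 and -3.63 in acrylamide samples, against -1.05, -1.20, -1.04 and -1.80 in controls. All 4 acrylamide arrays lay below all 4 controls. The difference was -2.13 (SE 0.36), or 0.229 times the control signal, and with an adjusted p of 0.0781 it was not called. It was called under median scaling (-1.96, adjusted p = 0.0498), with array weights (-1.70, adjusted p = 0.0301), with the replicate number as a block (adjusted p = 0.0262) and without acrylamide replicate 1 or 3 (adjusted p = 0.0298 and 0.0249).

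Tissue markers differed on these arrays. The muscle marker means of acrylamide male replicates 1 to 4 were 7.23, 1.69, 6.53 and 5.16, and their order is that of Bhlhe40, whose lowest arrays are replicates 2 and 4. Acrylamide replicates 1 and 3 had muscle means near the control male range of 6.59 to 7.67. Their Bhlhe40 levels were -2.59 and -2.71, against -1.80 to -1.04 in control males. In control males the lowest Bhlhe40 array, replicate 4, had the highest muscle mean, 7.67. All 14 muscle markers tested were well above background on every array. Pituitary markers averaged 0.12, 0.53, -2.87 and -1.53 on the 4 acrylamide arrays, against -5.40 to -4.13 in control males, and 5 of 6 tested were well above background on every acrylamide array, against 3 of 6 in controls. On acrylamide female night replicates 1 to 4 pituitary markers averaged -5.40, -1.09, -2.58 and -2.64, against -5.49 to -4.08 in control females at night. Bhlhe40 differed by -0.35 (SE 0.36) between those female groups, which overlapped. With the 4 arrays apart in tissue markers left out together the Bhlhe40 difference in males was -1.38 (adjusted p = 0.297). The part of tissue content and of array row in this difference was not tested beyond these values.

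**Figure D4:**
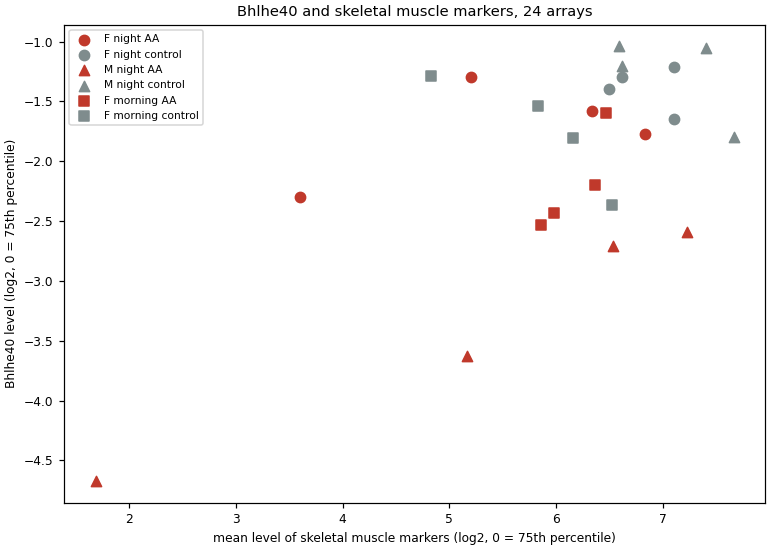
Bhlhe40 level (y axis, log2, 0 = 75th percentile) against the mean level of 14 skeletal muscle markers (x axis, same scale) on the 24 arrays; colours mark treatment and shapes mark sex and hour. The 4 acrylamide males (red triangles) lie lowest, from -2.59 to -4.67, and their Bhlhe40 level falls with their muscle mean.

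The other members in males at night were not called either. The 3 Dbp probes lay lower in acrylamide males: A_64_P017188 read 3.86, 3.77, 4.14 and 4.01, against 4.66, 4.43, 4.96 and 4.20 in control males. The acrylamide and control arrays did not overlap for any of the 3, and the differences were -0.62 (SE 0.20), -0.64 (SE 0.20) and -0.72 (SE 0.22), each with adjusted p = 0.352. In all, 4 of 10 probes had groups that did not overlap, where 4.34% of all probes did, and 5 of 10 had an unadjusted p under 0.05, where 13.7% did. These are Bhlhe40, the 3 Dbp probes, which count 1 gene 3 times, and, by unadjusted p alone, Usp2. Usp2 read 1.74, 0.64, 1.69 and 0.51 in acrylamide males, against 1.98, 1.62, 1.67 and 2.37 in control males, a difference of -0.77 (SE 0.25, adjusted p = 0.352). Its 2 low arrays are again replicates 2 and 4. Bhlhe41 differed by -0.91 (SE 0.53), with replicate 2 at -6.48 not well above background, and Tef by -0.21 (SE 0.23), Hlf by -0.27 (SE 0.32), Nfil3 by -0.32 (SE 0.39) and Wee1 by 0.09 (SE 0.17). Of the core clock genes, Nr1d1, a repressor of Arntl, differed most by t, by -1.47 (SE 0.51, adjusted p = 0.352), and none was called.

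In females at night no group of member arrays was separate: 0 of 10 probes had groups that did not overlap, where 5.33% of all probes did, and 0 of 10 had an unadjusted p under 0.05, where 1.77% did. The differences ran from -0.45 for Bhlhe41 (SE 0.53) to 0.21 for Wee1 (SE 0.17). For the 3 Dbp probes they were -0.35, -0.28 and -0.41, with 95% intervals within -0.86 to 0.13. These intervals hold 0 and also differences of the size measured in males.

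**Figure D5:**
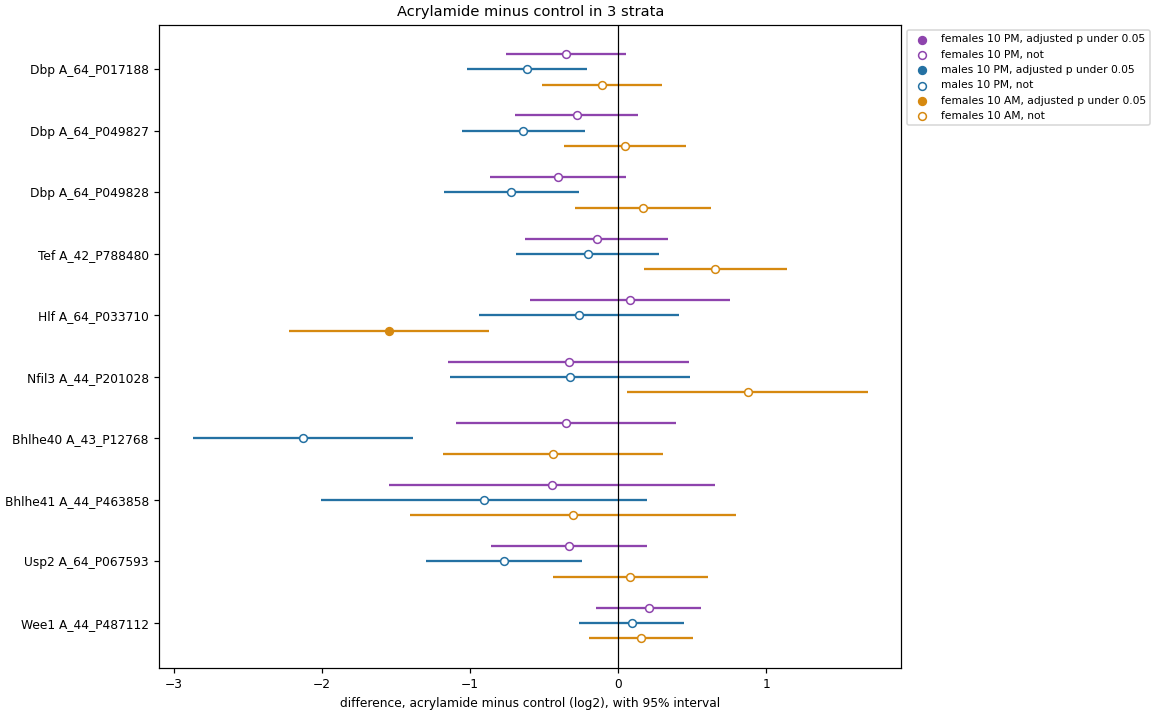
Difference between acrylamide and control (x axis, log2) for the 10 probes (y axis) in females at 10 PM, males at 10 PM and females at 10 AM, with 95% intervals from limma; filled points passed an adjusted p under 0.05. Hlf in females at 10 AM (-1.55) is the filled point, and Bhlhe40 in males at 10 PM (-2.13) is the farthest from 0.

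The acrylamide differences were themselves compared. Between night and morning in females, 0 of 10 probes were called, where 0% of all were, and 3 had an unadjusted p under 0.05, where 15.8% of all did. Hlf had a difference of differences of 1.63 (SE 0.46, adjusted p = 0.234), Nfil3 -1.21 (SE 0.55, adjusted p = 0.293) and Tef -0.80 (SE 0.33, adjusted p = 0.264). Between males and females at night, 0 of 10 were called, where 0% of all were, and 1 had an unadjusted p under 0.05, where 2.25% of all did. This was Bhlhe40, at -1.78 (SE 0.50, adjusted p = 0.995). The Hlf call in the morning and the Bhlhe40 value in males are therefore not shown to differ from the other strata.

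Between males and females in the night controls, 0 of 10 probes were called, where 0.00854% of all were. The Dbp probes differed by -0.52 (SE 0.20), -0.48 (SE 0.20) and -0.50 (SE 0.22), each with adjusted p = 1.00, and their arrays overlapped. Groups did not overlap for 0 of 10 probes, where 3.71% of all had such groups, and 3 of 10, the Dbp probes, had an unadjusted p under 0.05, where 1.61% of all did. Sex cannot be told apart from slide.

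For order over the 6 groups, the highest and lowest means are given. Dbp A_64_P017188 averaged from 5.08 ± 0.41 in control females at night to 1.85 ± 0.18 in acrylamide females in the morning (SD, n = 4). Acrylamide females at night (4.73), control males (4.56) and control females at night overlapped with their neighbours in this order, acrylamide males (3.95) overlapped with none, and the 2 morning groups overlapped. Usp2 ran the other way, from 2.64 ± 0.38 in acrylamide females in the morning to 1.14 ± 0.66 in acrylamide males at night, and among neighbours in this order only control females in the morning and control males at night did not overlap. Hlf stood apart in acrylamide females in the morning, at -6.37 ± 0.70, below the next group at -4.83 ± 0.20.

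Some members varied together within groups. Over the deviations of the 24 arrays from their group means, the 3 Dbp probes correlated with each other at r = 0.93 to 0.95. Dbp and Tef correlated at 0.64 to 0.75 and Nfil3 and Usp2 at 0.73, while Usp2 and Wee1 stood at -0.68. Of 42 probe pairs of different genes, 35 had r between -0.5 and 0.5. Arrays share slide, scaling and tissue content, so these values are descriptions. Among all other genes with a symbol, the 5 most like the brightest Dbp probe over the same 24 deviations were Tnfaip2 (r = 0.70), Fam58b (0.68), Ccndbp1 (0.66), LOC682105 (0.66) and Pthlh (0.66). The 5 most like Bhlhe40 were Cyp2j10 (0.87), Gpr27 (0.83), Msc (0.82), Gcnt1 (0.82) and Zbtb41 (0.82).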

How the data were processed

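Thyroid RNA was labelled with Cy3 and hybridised to Agilent one-colour arrays, 1 sample per array. The deposited processed signal, a linear intensity after background and spatial correction, was written by Agilent Feature Extraction (version 10.1.1.1, per the file headers) with the mean and background intensity and 0 or 1 flags. The deposited series matrix holds log2 values, found by comparison to be the log2 processed signal minus each array's median (column medians 0), and was used as an alternative.

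Control spots and spots with outlier flags were left out, log2 values of replicate spots averaged, and each array's 75th percentile subtracted. No member spot was saturated. Probes had to be well above background on at least 3 of 4 arrays of 1 group (23414 probes). Group means were fitted to 24 arrays with limma 3.58.1 (R 4.3.3, package data.table, version 1.17.8, statmod 1.5.0), with 18 residual degrees of freedom, 2-sided tests and Benjamini-Hochberg adjustment over all probes tested; all adjusted p are limma's, and SE is of a difference. The test was checked on simulated data with 1 spread per probe for all groups, so the check does not cover groups of unequal spread. The median SD over probes was 0.45 in acrylamide females in the morning, 0.40 in acrylamide males and 0.23 in acrylamide females at night. In the control groups it was 0.18 to 0.25. The number of arrays, 4 per group, limits precision. The labels do not tie samples to animals beyond the sample, so the p-values reflect only how these samples spread, which may be technical.

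Members and gene lists were chosen with earlier results of these data known. Every member probe is named. Of each gene list, the brightest probe per gene was used, and up to 6 called genes with the smallest p per comparison, or the 2 with the largest absolute t where none was called, could be named. The 5 genes most like Dbp and Bhlhe40 were taken by Pearson r. Alternatives changed the background correction, scaling, filter, probe choice, arrays fitted, replicate or slide block and array weights, and left out each array.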

Additional observations from a re-analysis of the deposited data

Results flagged for a closer look

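Within 60 groups of 4 arrays (10 probes in 6 groups), 2 held an array whose gap to its nearest neighbour took up a share of the group's range above Dixon's 95% critical value, and chance flags about 1 in 20 such groups. Hlf read -7.41 on acrylamide female morning replicate 1, where the other 3 arrays of the group read -6.16 to -5.90. The spot was not well above background, and the follicular marker mean of this array was -3.45. Wee1 read 2.02 on acrylamide female night replicate 1, where the other 3 read 1.72 to 1.77, a narrow range.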

How the results depend on the processing

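Of 80 pairs of a member probe and a comparison, 71 kept their side of the threshold in all alternatives run (37 settings in all, each for the comparisons it touches) and 9 did not. The Dbp, Tef, Wee1 and Usp2 calls between night and morning held in all of them. The count of members called in males at night, 0, became 1 (Bhlhe40) under normexp, median scaling, the deposited series matrix, the replicate block and array weights. The series matrix is itself scaled by each array's median, so it and median scaling are nearly the same setting. When single arrays were left out, the count in males at night ranged from 0 to 1. The count in females in the morning, 1, became 0 under normexp, with probes well above background on all arrays (which leaves out Hlf), with only the 2 groups fitted, with slide as a fixed term and with array weights, and ranged from 0 to 2 when single arrays were left out. Leaving out the 4 arrays apart in tissue markers together was chosen after seeing the data. With them left out, all 10 member probes were called between night and morning in acrylamide females and 8 in control females. The share of all probes called in that setting is not given here. In the main fit it was 54.7% in acrylamide females and 47.6% in control females. The other counts when single arrays were left out were 7 to 8 for night against morning in acrylamide females and 6 to 7 in control females, and 0 for the rest. Bhlhe41 between night and morning in control females reversed to -0.18 under normexp. Apart from males at night, the replicate block changed no count. Same-numbered arrays were not shown to be pairs: their deviations correlated at -0.24 to 0.44 (60 pairs, median 0.03, against -0.00 for other arrays), and 12 of 24 arrays were matched best by an array of their own number, 50%, where 25% of the 240 pairs are same-numbered.

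Over all probes, night against morning in control females gave 4912 higher and 6225 lower, against 3775 and 9883 under normexp, 7250 and 5200 under quantile normalization and 7587 and 5195 under median scaling, with medians of 0.03, -0.28, 0.20 and 0.30. In acrylamide females the split was 6365 and 6445, against 4998 and 9121, 8243 and 5386, and 8517 and 5352. The called probes in females in the morning with acrylamide numbered 429, and from 0 (only the 2 groups fitted) to 2393 (without acrylamide replicate 3) in the alternatives. Median scaling moved the median of all probes in males at night from -0.01 to 0.16. The cause of these changes was not tested. Morning arrays were dimmer (75th percentile 8.59 to 9.70 on the log2 scale, against 9.77 to 10.8 at night), so dim probes such as Hlf and Bhlhe41 are limited by signal over background.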
